A study of Taeniopygia guttata with 22 samples.

Results

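Eph receptors and ephrins are a family of contact-dependent guidance molecules, and 10 of them were followed here in RA of the zebra finch. RA, the robust nucleus of the arcopallium, sends the song circuit's motor commands to the brainstem. The genes are the ephrins EFNA5, EFNB1 and EFNB2, the EphA receptors EPHA3, EPHA4, EPHA5, EPHA6 and EPHA7, and the EphB receptors EPHB1 and EPHB2. They were taken by the NCBI gene ID of each symbol in a fixed list, and all 10 had an entry among the 21786 genes with an ID in the count table. The IDs are 100228846 for EFNA5, 100224613 for EFNB1, 100219955 for EFNB2, 100222368 for EPHA3, 100218649 for EPHA4, 100227363 for EPHA5, 100218462 for EPHA6, 100224370 for EPHA7, 100221497 for EPHB1 and 100218346 for EPHB2. All 10 also passed the filter on low counts, which left 16004 genes for testing.

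The nucleus was collected by laser capture from stained frozen sections of males and females, and SMART-Seq cDNA made from 1 ng of RNA was sequenced. The 22 libraries are 5 of males and 7 of females at 50 days posthatch, and 5 of males and 5 of females at 20 days. The labels name no strain, genotype or drug treatment, and state that birds were taken soon after lights-on without having sung. In zebra finches males learn to sing and females do not, and 20 and 50 days fall before and during vocal practice, so the design asks when the sexes come apart.

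Ephrins sit on the cell surface and bind Eph receptors on a neighbouring cell. A-type ephrins are held by a lipid anchor and mainly bind EphA receptors, whereas B-type ephrins span the membrane and mainly bind EphB receptors. Signals run both ways, forward through the receptor tyrosine kinase and in reverse through the ephrin. In vertebrate brains the family is known for repelling growing axons, for setting topographic maps and for shaping dendritic spines.

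Total counts per library fell into 13 shallow libraries (16169659 to 22347410 counts) and 9 deep ones (49120337 to 64996530 counts). At 50 days 3 of 5 male and 1 of 7 female libraries were deep. At 20 days every male library was shallow and every female library deep, so sex and depth cannot be told apart at that age. The brain ids of female 50-day replicates 5 and 6 share a number. If they are 1 bird, p-values are too small in each comparison with 50-day females: by sex at 50 days, by age in females and for the interaction. Brain ids of female 50-day replicates 1 to 5 end in a letter, unlike those of all other libraries. Whether levels go with that letter was not tested. Among markers of glutamatergic projection neurons, SLC17A6, the vesicular glutamate transporter, was read at 395 to 807 CPM over all libraries and the transcription factor ETV1 at 241 to 1011 CPM. Levels are given in CPM, counts per library size with TMM scaling factors applied, which are not comparable between genes since transcript length enters them. A gene was called at an adjusted p under 0.05 in edgeR's quasi-likelihood test over all 16004 genes.

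At 50 days 6 of the 10 genes were lower in males than in females and none was higher. These were the receptors EPHB2, EPHA6, EPHA5, EPHA7 and EPHB1 and the ligand EFNA5, with fitted levels between 1.47-fold and 2.48-fold lower in males. EFNB1, EFNB2, EPHA3 and EPHA4 were not called. For comparison, 33.1% of all genes tested were called at 50 days and 17.2% were called lower in males. The median log2 fold change was -0.57 over the 10 genes and -0.03 over all genes tested. In 5 of the 10 genes the ranges of the sexes did not overlap, against 16.1% of all genes. In such bulk tissue, fewer cells of a type and less RNA per cell cannot be told apart.

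**Figure D1:**
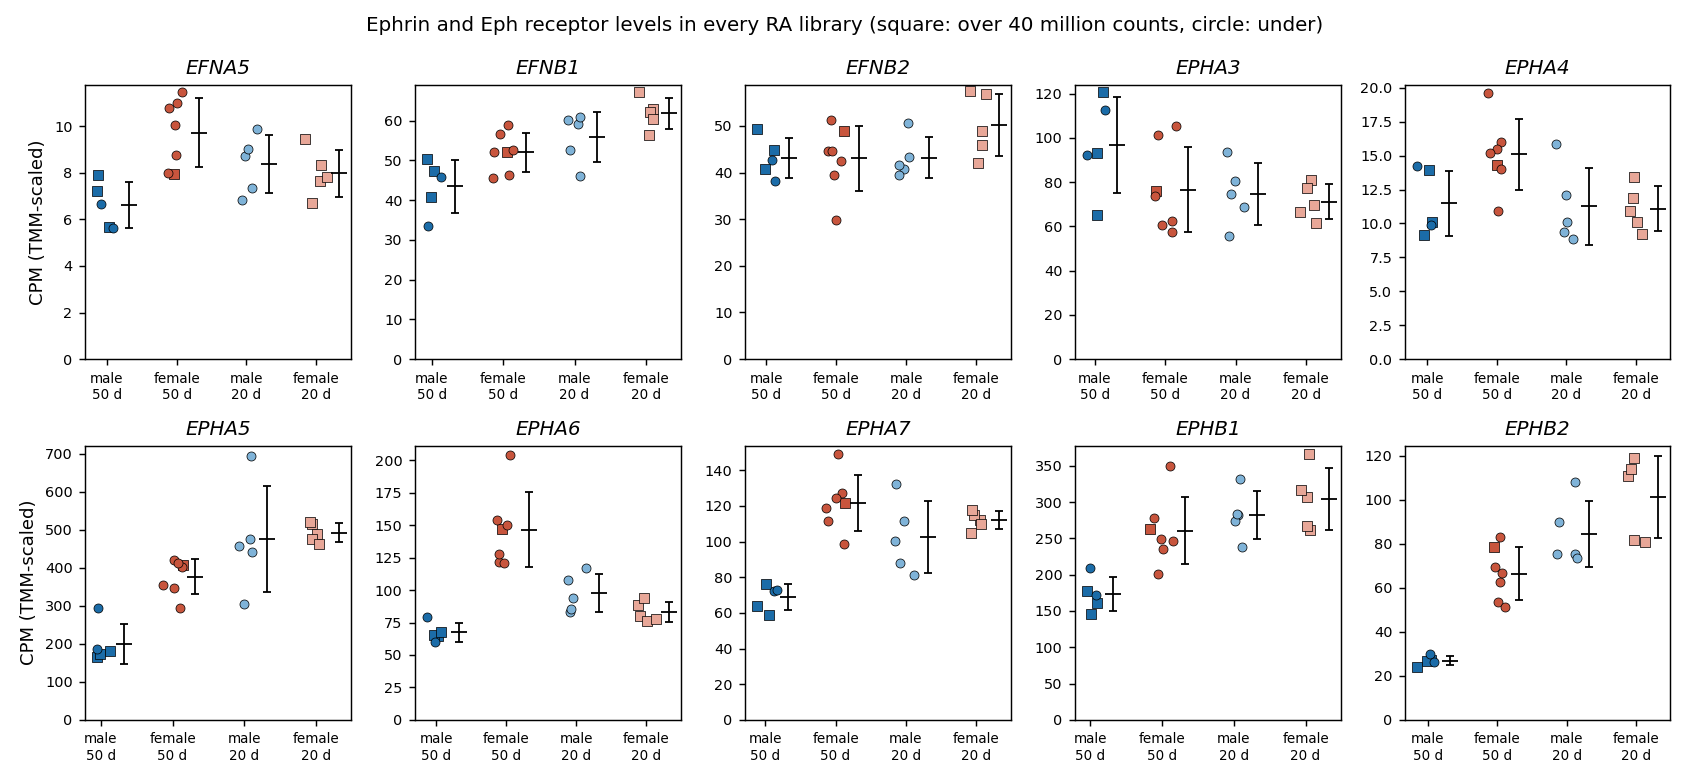
Level of each ephrin and Eph receptor gene in CPM (linear axis from 0) in every library, with males left of females at 50 days and then at 20 days. Points are libraries (squares deep, circles shallow), and bars are the mean ± SD of 5 libraries, or 7 for 50-day females; all 5 points of 50-day males lie below all points of the other groups for EPHA5, EPHA7 and EPHB2.

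EFNA5, an A-type ephrin that repels retinal axons in mouse and chick, stood at 5.64, 5.66, 6.67, 7.21 and 7.91 CPM in 50-day males, against a lowest of 7.94, a median of 10.1 and a highest of 11.5 CPM in 50-day females. The highest male value lay just under the lowest female one, so the ranges met without overlapping. The log2 fold change was -0.55 (SE 0.15, edgeR adjusted p = 0.007). At 20 days the gene averaged 8.37 ± 1.25 CPM in males and 7.99 ± 1.01 CPM in females (SD, n = 5 each), with overlapping ranges and a log2 fold change of 0.07 (SE 0.16, adjusted p = 0.959). Among shallow libraries the 50-day log2 fold change was -0.69 (adjusted p = 0.0808), and among deep ones, with 1 female library, it was -0.20 (adjusted p = 0.774).

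EFNA5 is the one gene of the 10 that lies on the Z chromosome in the RefSeq table of the bTaeGut7.mat assembly, though the assembly behind the counts is not named. Males carry a pair of Z chromosomes and females a single one, and birds lack full dosage compensation. The median log2 fold change of the 658 Z-linked genes tested was 0.67 in males against females at 50 days, with quartiles of 0.22 and 1.07. EFNA5 had a higher fold change than only 29 of them (4.41%), and 35 of the 658 (5.32%) were called lower in males. At 20 days the Z-linked median was 0.69, and 49 of the 658 genes (7.45%) had a lower fold change than EFNA5. EFNA5 was not called higher in males at either age, whereas 378 Z-linked genes were at 50 days and 281 at 20 days.

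**Figure D2:**
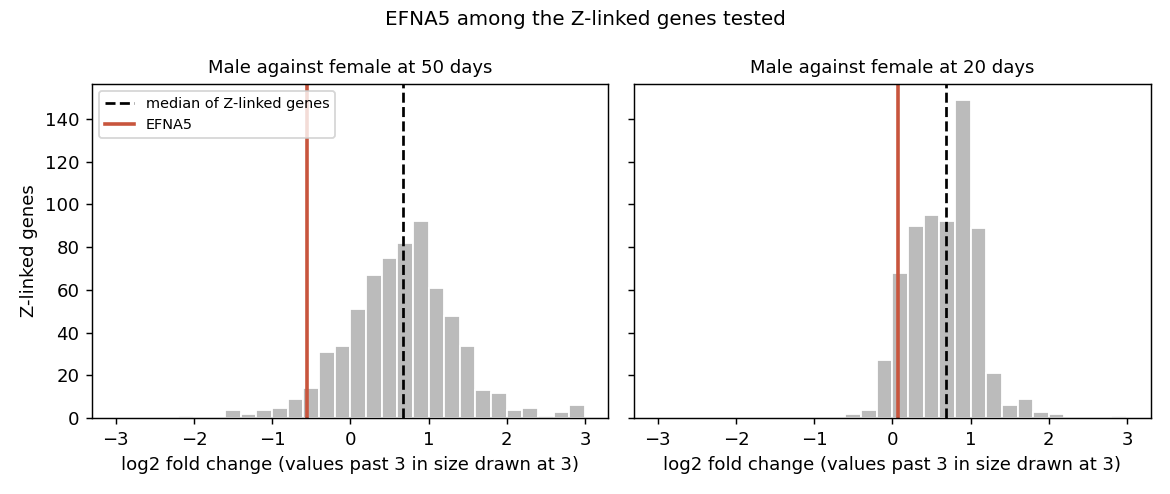
Histograms of the log2 fold change of the 658 tested Z-linked genes, male against female, at 50 days (left) and 20 days (right). The dashed line is their median (0.67 and 0.69) and the solid line EFNA5 (-0.55 at 50 days and 0.07 at 20 days), which lies left of the median at both ages.

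The B-type ephrins showed no called difference between the sexes. EFNB1, a ligand that also signals in reverse through its cytoplasmic tail, ranged over 33.4 to 50.4 CPM in 50-day males and 45.5 to 58.9 CPM in 50-day females. Its log2 fold change was -0.26 (SE 0.10, adjusted p = 0.0514), and its call depended on the setting: the adjusted p was 0.0453 with depth set (shallow or deep) as a model term and 0.0267 to 0.168 when each library was left out. EFNB2, known as the ephrin of arterial vessels and a ligand of EphB receptors and EPHA4, averaged 43.1 ± 4.28 CPM in 50-day males (SD, n = 5) and 43.0 ± 6.95 CPM in 50-day females (SD, n = 7). The 95% interval of its log2 fold change, -0.24 to 0.25 (t quantile for 18 degrees of freedom), leaves room for a difference of that size in either direction.

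Of the 5 EphA receptors among the 10 genes, EPHA6, a receptor found mainly in the nervous system, had the largest fold between the sexes at 50 days. It was read at 60.3, 64.5, 65.2, 67.9 and 78.9 CPM in 50-day males, against a lowest of 121, a median of 147 and a highest of 204 CPM in 50-day females. No male library reached the lowest female one. The fitted level was 2.18-fold lower in males (log2 fold change -1.12, SE 0.12, adjusted p = 3.2e-07).

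EPHA5, a neuronal receptor of A-type ephrins, stood at 166, 172, 181, 186 and 294 CPM in 50-day males, against a lowest of 295, a median of 401 and a highest of 421 CPM in 50-day females. One male library (replicate 2) lay apart from the other 4 and just under the female range. The gene was 1.89-fold lower in males (log2 fold change -0.92, SE 0.16, adjusted p = 9.6e-05), and the log2 fold change was -1.10 without that library. Among shallow libraries, where that library is 1 of 2 males, it was -0.62 (adjusted p = 0.116). Among deep ones, with 1 female library, it was -1.24.

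EPHA7, a receptor whose truncated isoforms are known in the mouse to turn repulsion into adhesion, stood at 59.0, 63.8, 72.3, 73.0 and 76.1 CPM in 50-day males, against a lowest of 98.6, a median of 121 and a highest of 149 CPM in 50-day females. The sexes were well separated. The log2 fold change was -0.82 (SE 0.11, adjusted p = 4.89e-06). Counts per gene cannot show whether full-length or truncated EPHA7 transcripts made up the difference.

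EPHA3 and EPHA4 were not called. EPHA3, a high-affinity receptor of ephrin-A5, ranged over 65.1 to 121 CPM in 50-day males and 57.4 to 105 CPM in 50-day females, and its log2 fold change of 0.34 (SE 0.16, adjusted p = 0.121) was the only one of the 10 above 0.1. It lies near EPHA6 on chromosome 1, with 4 protein-coding genes between them in the RefSeq table. Without female 50-day replicate 1 or male 50-day replicate 4 EPHA3 was called higher in males, with an adjusted p as low as 0.0388, as it was by limma voom with sample quality weights on all libraries. EPHA4, which binds ephrins of both types and keeps corticospinal axons from recrossing the midline in mice, ranged over 9.15 to 14.2 CPM in 50-day males and 10.9 to 19.6 CPM in 50-day females (log2 fold change -0.40, SE 0.17, adjusted p = 0.0808). It was called lower without female 50-day replicate 4 or male 50-day replicate 2 (adjusted p as low as 0.0424).

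Both EphB receptors were lower in 50-day males. EPHB2, a receptor that clusters NMDA receptors and promotes spine formation in rodent neurons, stood at 24.0, 26.5, 26.6, 27.4 and 29.9 CPM in 50-day males, against a lowest of 51.1, a median of 66.8 and a highest of 83.2 CPM in 50-day females. Every female library lay well above every male one. The level was 2.48-fold lower in males (log2 fold change -1.31, SE 0.14, adjusted p = 2.03e-07). EPHB1, which directs retinal axons to the same side of the brain in mice, stood at 146, 161, 172, 178 and 209 CPM in 50-day males, against a lowest of 201, a median of 249 and a highest of 350 CPM in 50-day females. Its ranges overlapped by 1 library on each side, and its log2 fold change was -0.59 (SE 0.12, adjusted p = 0.00054).

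With a depth term all 6 genes kept their calls at 50 days and EFNB1 gained one, 7 in all. That fit called 4018 of the 16004 genes tested. EPHA6, EPHA7 and EPHB2 were called lower in males both among shallow libraries (2 males, 6 females) and among deep ones (3 males, 1 female, whose spread is taken to be that of the other groups). In those smaller fits EPHB1 was called in neither set, with log2 fold changes of -0.44 (adjusted p = 0.131) and -0.70 (adjusted p = 0.0637).

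At 20 days none of the 10 genes was called by edgeR between males and females, and every pair of ranges overlapped. None had an unadjusted p under 0.05, and DESeq2 and limma voom called none either. Of all genes tested 2.11% were called, 1.92% higher and 0.181% lower in males, the ranges did not overlap in 3.61%, and 1585 had an unadjusted p under 0.05. The log2 fold changes ran from -0.26 (SE 0.14) for EPHB2 to 0.23 (SE 0.13) for EPHA6, and EPHA6 had the value furthest above 0 (adjusted p = 0.621). The 95% intervals of this fit, which has no depth term, reached from -0.56 to 0.04 for EPHB2 and from -0.40 to 0.30 for EPHA5. With a depth term the log2 fold changes were -0.20 (SE 0.21) for EPHB2 and -0.26 (SE 0.24) for EPHA5. Those SEs were larger than the 0.14 and 0.17 without it, so the intervals given are too narrow where depth is allowed for. Since every male library was shallow and every female library deep at this age, they do not bound a difference by sex alone.

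**Figure D3:**
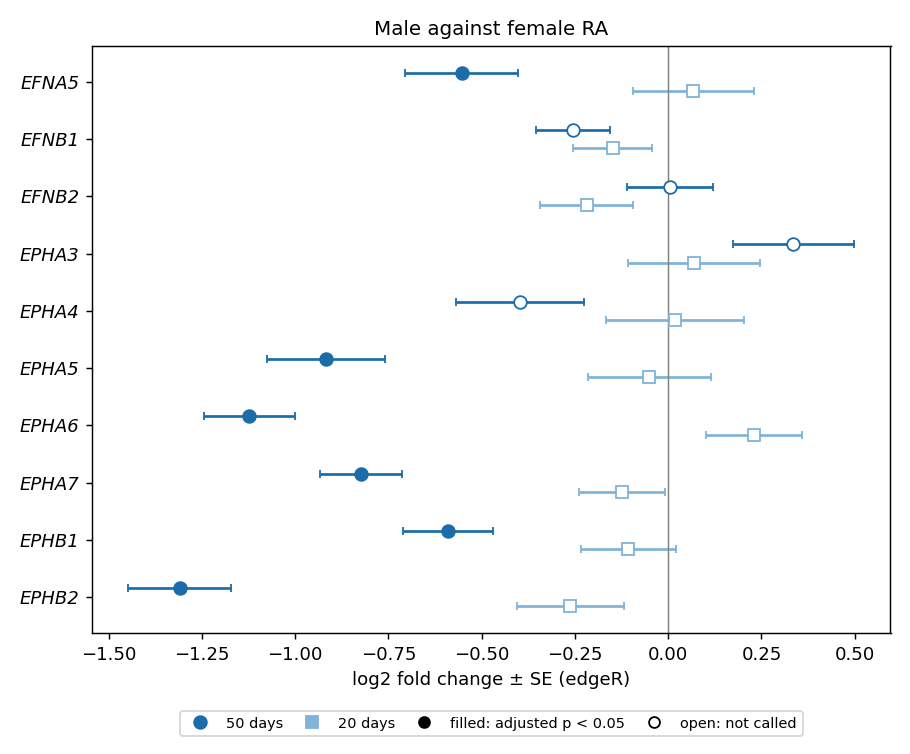
Log2 fold change of each gene, male against female, at 50 days (circles) and at 20 days (squares), with 1 SE on either side. Filled symbols passed an adjusted p of 0.05 (6 genes at 50 days, none at 20 days); EPHB2 (-1.31) and EPHA6 (-1.12) lie furthest to the left at 50 days.

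Between 20 and 50 days 6 of the 10 genes fell in males, and none rose. Of all genes tested 26.7% were called in this comparison 14.2% lower and 12.5% higher at 50 days; the ranges of 5 of the 10 genes did not overlap, against 18.1% of all genes. The median log2 fold change was -0.45 over the 10 genes, against -0.01 over all genes. EPHB2 fell most, to the 24.0 to 29.9 CPM given above, against 73.8, 75.2, 75.3, 90.1 and 108 CPM in 20-day males. The ages were far apart, with a 3.15-fold lower level at 50 days (log2 fold change -1.65, SE 0.15, adjusted p = 4.44e-08).

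EPHA5 was 2.38-fold lower at 50 days in males (log2 fold change -1.25, SE 0.17, adjusted p = 7.94e-06), with 305, 442, 457, 477 and 694 CPM at 20 days. The lowest 20-day male lay just above the highest 50-day male. EPHB1 followed with a log2 fold change of -0.70 (SE 0.13), then EPHA7 with -0.58 (SE 0.12) and EPHA6 with -0.53 (SE 0.13), at adjusted p of 0.000237, 0.000688 and 0.00318. In 20-day males EPHB1 ranged over 238 to 332 CPM, EPHA7 over 81.2 to 132 CPM and EPHA6 over 83.2 to 117 CPM, in each case above every 50-day male.

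Of the 3 ephrins among the 10 genes, EFNB1 alone was called by age. It averaged 43.5 ± 6.67 CPM in 50-day males and 55.8 ± 6.33 CPM in 20-day males (SD, n = 5 each), a log2 fold change of -0.36 (SE 0.11, adjusted p = 0.0157) with overlapping ranges. The call was lost when only the groups compared were fitted and among shallow libraries, where the log2 fold change was -0.47 (adjusted p = 0.0902); with a depth term it was -0.44 and the call was kept. Among those shallow libraries, which hold 2 of the 5 50-day males, EPHA5 (log2 fold change -0.96, adjusted p = 0.0252) and EPHB2 (-1.56, adjusted p = 0.000375) kept their calls in males, whereas EPHA6, EPHA7 and EPHB1 had log2 fold changes of -0.47, -0.48 and -0.55 and lost theirs (adjusted p = 0.186, 0.119 and 0.0776).

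In females 1 of the 10 genes rose and 1 fell between 20 and 50 days, where 6.8% of all genes rose, 8.05% fell and 14.9% were called in all. EPHA6 rose to a lowest of 121, a median of 147 and a highest of 204 CPM in 50-day females, against 75.8, 77.4, 79.9, 88.8 and 93.9 CPM in 20-day females. No library of one age reached the other. The rise was 1.76-fold (log2 fold change 0.82, SE 0.12, adjusted p = 9.32e-05). Among deep libraries, with 1 at 50 days, the log2 fold change was again 0.82 but the adjusted p was 0.0574.

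EPHB2 fell in females as well, by less than in males. It ranged over 51.1 to 83.2 CPM in 50-day females, against 80.7, 81.7, 111, 114 and 119 CPM in 20-day females, so that the ranges touched at 1 library of 50 days. The log2 fold change was -0.61 (SE 0.13, adjusted p = 0.00308). With a depth term it was -0.56 (adjusted p = 0.0946), and among deep libraries -0.38 (adjusted p = 0.562, 1 library at 50 days). All 5 of the 20-day females were deep, against 1 of the 7 at 50 days. In 2 of the 10 genes, EPHA5 and EPHA6, the ranges of the ages did not overlap in females, against 7.46% of all genes.

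The other 8 genes were not called in females. EPHA5 had 295 to 421 CPM in 50-day females and 461 to 519 CPM in 20-day females, which do not overlap, but its log2 fold change of -0.38 (SE 0.15) missed the threshold (adjusted p = 0.0932, and 0.0479 without male 50-day replicate 2). EPHA4 had a log2 fold change of 0.44 (SE 0.17, adjusted p = 0.0852), and was called higher at 50 days without female 50-day replicate 4 and by DESeq2. EPHA7 averaged 122 ± 15.5 CPM in 50-day females (SD, n = 7) and 112 ± 5.00 CPM in 20-day females (SD, n = 5), a log2 fold change of 0.12 (SE 0.11, adjusted p = 0.501).

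**Figure D4:**
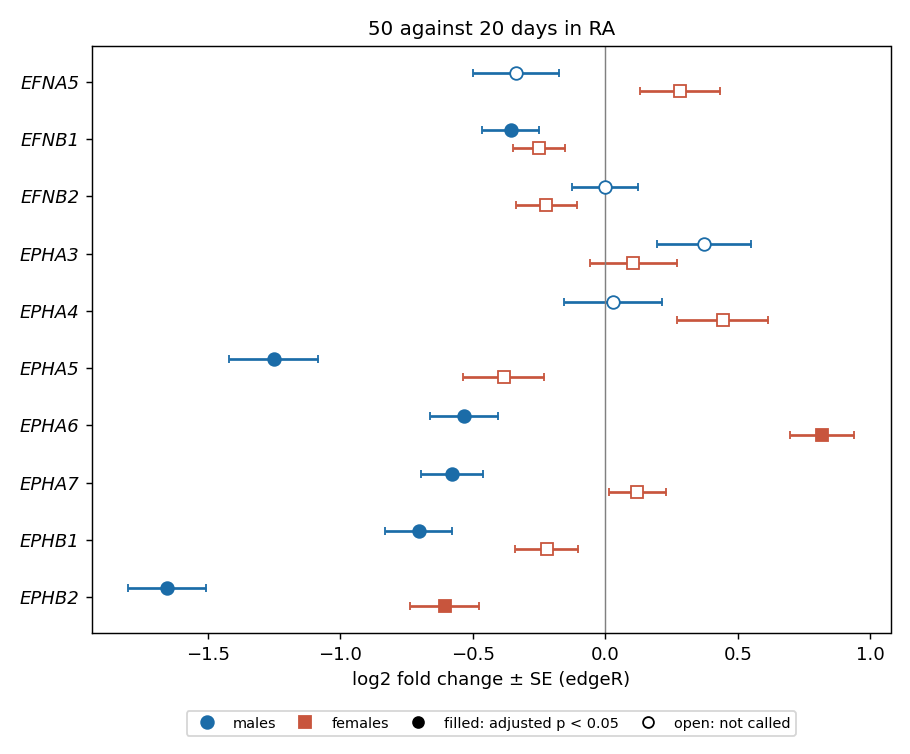
Log2 fold change of each gene, 50 against 20 days, in males (circles) and in females (squares), with 1 SE on either side and filled symbols for an adjusted p under 0.05. EPHA6 lies left of 0 in males (-0.53) and right of 0 in females (0.82), and EPHB2 is furthest left in males (-1.65).

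The age change itself differed between the sexes in 4 of the 10 genes, all with the male change below the female one. For the interaction, 12.3% of all genes were called, 6.57% in that direction and 5.75% in the other. EPHA6 had the largest difference, with a male age change minus a female one of -1.35 on the log2 scale (SE 0.18, adjusted p = 7.86e-05): it fell in males and rose in females. EPHB2 followed with -1.05 (SE 0.20, adjusted p = 0.00125), having fallen in both sexes but further in males. EPHA5 had -0.87 (SE 0.23, adjusted p = 0.0145) and EPHA7 -0.70 (SE 0.16, adjusted p = 0.00594), neither of which was called by age in females.

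EFNA5 had an interaction of -0.62 (SE 0.22, adjusted p = 0.0703) and EPHB1 one of -0.48 (SE 0.17, adjusted p = 0.0727), which did not pass. EFNA5 passed in DESeq2 (adjusted p = 0.0404), and EPHB1 passed when female 20-day replicate 4, female 50-day replicate 7 or male 50-day replicate 3 was left out. With a depth term EPHA6 alone kept its call (adjusted p = 0.041), while EPHB2 had -1.13 (adjusted p = 0.0954), EPHA7 -0.59 (adjusted p = 0.331) and EPHA5 -0.58 (adjusted p = 0.497). The comparisons by sex, by age and of their interaction share libraries, so their values are not independent of each other.

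Read over the 4 groups, the genes thus took different courses. EPHA5, EPHB1 and EPHB2 were at their highest mean in 20-day females, followed by 20-day males, 50-day females and 50-day males, and the ranges of the 20-day groups overlapped. The ephrin EFNB1 had its means in the same order, from 61.9 to 43.5 CPM, with neighbouring groups overlapping in range. EPHA6 had its highest mean in 50-day females and its lowest in 50-day males, with both 20-day groups between (97.5 ± 14.8 CPM in males and 83.2 ± 7.84 CPM in females, SD, n = 5 each). EPHA7 overlapped between 3 groups and was lower in 50-day males. EPHA3 and EPHA4 had their highest means in 50-day males and in 50-day females, at 96.8 and 15.1 CPM, and neighbouring groups in that order overlapped in range.

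Several lists of cell type markers also differed between the groups. Of all genes tested 17.2% were called lower and 16% higher in 50-day males than in 50-day females. GABAergic interneuron markers (11 of 11 listed with an entry) summed to 649 to 1163 CPM in 50-day males and 1306 to 1800 CPM in 50-day females, and 10 of 11 were called lower in males. Markers of immature neurons (7 of 7) summed to 932 to 1300 CPM in 50-day males, 2241 to 2840 CPM in 50-day females, 3294 to 4076 CPM in 20-day males and 3068 to 4336 CPM in 20-day females, and all 7 were called lower in 50-day males than in 50-day females. Astrocyte markers (5 of 7) summed to 5613 to 7064 CPM in 50-day males and 3377 to 3881 CPM in 50-day females, with 4 of 5 called higher in males. Endothelial and mural markers (8 of 9) summed to 447 to 624 CPM in 50-day males and 246 to 394 CPM in 50-day females, with 4 of 8 called higher and 1 lower in males. Glutamatergic neuron markers (5 of 5) overlapped, at 844 to 1631 CPM in 50-day males and 990.5 to 1505 CPM in 50-day females, with 1 of 5 called lower. Myelin markers (5 of 8) summed to 7224 to 12630 CPM in 50-day males, 2828 to 6759 CPM in 50-day females, 138 to 1172 CPM in 20-day males and 128 to 1419 CPM in 20-day females, and 0 of 5 were called by edgeR between the sexes at 50 days. In the remaining lists, 1 of 6 microglial and 1 of 4 oligodendrocyte precursor markers tested were called lower in 50-day males. Of fibroblast markers 1 of 4 was called higher, and of red blood cell markers 0 of 2 were called. With age the immature-neuron markers were called lower in males (7 of 7) and in females (5 of 7). The myelin markers were called higher in both sexes (5 of 5 each). The interneuron markers were called lower in males (5 of 11) and higher in females (6 of 11). By age 14.2% of all genes were called lower and 12.5% higher in males, and 8.05% lower and 6.8% higher in females. The part of these cell types in the ephrin and Eph results was not tested. No listed marker with an entry was at 0 counts throughout a group.

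Genes most like the receptors over the 22 libraries were picked by Pearson's r of log2(CPM + 1) among 9746 other genes with a symbol and a mean of at least 5 CPM. These values are descriptions over libraries that share the 4 groups and their depth sets. For EPHB2 they were ARHGAP20, a GTPase-activating protein (r = 0.956), and SOX11, a transcription factor of immature neurons (r = 0.955). Within groups, over deviations from the group means, r was 0.830 with ARHGAP20 and 0.540 with SOX11.

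EPHB1 was most like the semaphorin receptors PLXNA4 (r = 0.935, and 0.771 within groups) and PLXNA2 (r = 0.931, and 0.752 within groups). EPHA5 was closest to TBR1, a transcription factor of glutamatergic neurons (r = 0.944, and 0.695 within groups), and LIMD2 (r = 0.932, and 0.656 within groups). EPHA6 was closest to the kinase gene RPS6KA5 (r = 0.906, and 0.550 within groups) and to the guidance gene SEMA5A (r = 0.870, and 0.594 within groups). EPHA7 was closest to the chromatin remodeller SMARCA1 (r = 0.905, and 0.560 within groups) and the calcium channel CACNA1C (r = 0.90, and 0.591 within groups). For the ephrins and for EPHA3 and EPHA4 the best match had a lower r, between 0.711 for EFNB2 with ATG16L1 and 0.848 for EFNB1 with RUFY3.

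Among 57 listed genes of the wider pathway 52 had an entry and 51 were tested. At 50 days 14 were called lower and 9 higher in males, 23 in all of 51, against the 33.1% of all genes called; the median log2 fold change was -0.17. The rest of the Eph and ephrin family, with 10 tested, had 3 lower, 1 higher and 6 not called. EPHB3, a further EphB receptor, ranged over 19.95 to 30.04 CPM in 50-day males and 38.3 to 62.45 CPM in 50-day females (log2 fold change -0.89, SE 0.15, adjusted p = 0.00011). EPHB6, a member without kinase activity, averaged 12.8 ± 3.89 CPM in 50-day males (SD, n = 5) and 27.1 ± 7.93 CPM in 50-day females (SD, n = 7), with a log2 fold change of -1.08 (SE 0.20, adjusted p = 0.000267). EFNA3, an A-type ephrin, was lower (-0.59) and EFNA1, known from vessels, higher in males (0.74, adjusted p = 0.00833).

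Among the partners of ephrin reverse signalling, RELN, the secreted reelin that binds B-type ephrins, had the lowest log2 fold change of the called pathway genes (-1.33, SE 0.26, adjusted p = 0.000435) and SDCBP the highest. SDCBP, the syntenin adaptor that binds the tails of B-type ephrins and syndecans, averaged 550.0 ± 61.7 CPM in 50-day males (SD, n = 5) and 281 ± 22.5 CPM in 50-day females (SD, n = 7), 1.96-fold higher in males (adjusted p = 1.48e-08). GRIP2, a scaffold of AMPA receptors that binds B-type ephrins, averaged 8.29 ± 2.54 CPM in 50-day males (SD, n = 5) and 18.9 ± 2.82 CPM in 50-day females (SD, n = 7), with a log2 fold change of -1.20 (SE 0.19, adjusted p = 3.32e-05). Of the 9 genes tested in that subset 5 were lower, 1 higher and 3 not called, against 17.2% of all genes lower and 16% higher in males.

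Among the 28 genes tested of forward signalling 7 were higher, 5 lower and 16 not called at 50 days, where 16% of all genes were higher and 17.2% lower in males. ROCK2, a kinase that contracts the growth cone, averaged 86.2 ± 8.79 CPM in 50-day males (SD, n = 5) and 143 ± 13.2 CPM in 50-day females (SD, n = 7), a log2 fold change of -0.73 (SE 0.09, adjusted p = 3.32e-06). SDC2, the syndecan that EphB2 phosphorylates in rodent spines, was 1.58-fold higher in males (adjusted p = 3.01e-05). Among deep libraries, with 1 female library at 50 days, ROCK2 had a log2 fold change of -0.67 and SDC2 one of 0.70, and neither kept its call.

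**Figure D5:**
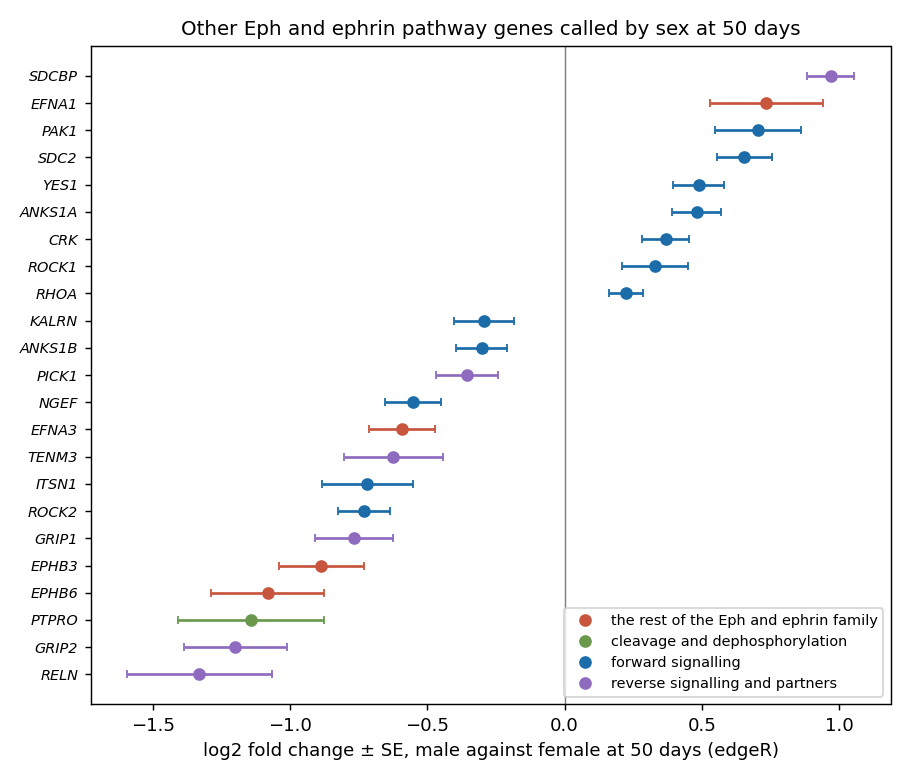
Log2 fold change (± SE) at 50 days, male against female, of the 23 other pathway genes called, coloured by their subset of the pathway list. SDCBP lies furthest to the right (0.97) and RELN furthest to the left (-1.33).

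At 20 days none of the 51 pathway genes was called between males and females by edgeR, DESeq2 or limma voom, and 2 had an unadjusted p under 0.05. From 20 to 50 days 9 of the 51 rose and 14 fell in males, where 12.5% of all genes rose and 14.2% fell. In females 4 rose and 7 fell, against 6.8% and 8.05% of all genes. In males EPHB3 fell to 24.8 ± 3.66 CPM at 50 days, against 69.7 ± 15.3 CPM at 20 days (SD, n = 5 each), 2.81-fold lower (adjusted p = 7.58e-07). PTPRO, a phosphatase that acts on Eph receptors in the chick, fell to 6.60 ± 2.24 CPM at 50 days, against 24.2 ± 7.46 CPM at 20 days (SD, n = 5 each, adjusted p = 3.4e-05). In the same males PAK1, a kinase downstream of Rac and Cdc42, was 2.18-fold higher at 50 days and SDCBP 1.68-fold (adjusted p = 4.01e-05 and 3.19e-06).

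In females EPHB3 fell to 38.3 to 62.45 CPM at 50 days (n = 7), against 65.6 to 95.1 CPM at 20 days (n = 5, edgeR adjusted p = 0.000609). CDC42, a small GTPase of filopodia, the phosphatase gene ACP1 and the Src-family kinase FYN fell by 0.35, 0.35 and 0.48 on the log2 scale (adjusted p = 0.000431, 0.00256 and 0.00508). Among deep libraries, with 1 at 50 days, none of these 4 calls was kept (adjusted p from 0.144 to 0.464), while the log2 fold changes were -1.06 for EPHB3, -0.46 for ACP1, -0.43 for CDC42 and -0.38 for FYN. With a depth term FYN had -0.47 (adjusted p = 0.101) and was not called. Leaving out female 20-day replicate 3 or 4 left 7 pathway genes called in females in place of 11. For the interaction 4 of 51 were called with a higher and 6 with a lower male change, against 5.75% and 6.57% of all genes; SDCBP (0.79), GRIP2 (-1.23), SDC2 (0.63) and ANKS1A (0.53), an adaptor of Eph receptors, had the smallest p (adjusted p = 0.000331, 0.00448, 0.00851 and 0.0109). That count of 10 was 6 without male 20-day replicate 2 or male 50-day replicate 4, and 1 with a depth term. Under that term SDC2 had an interaction of 0.70, GRIP2 one of -0.57 and ANKS1A one of 0.38, and none of the 3 was called (adjusted p = 0.209, 0.549 and 0.474).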

How the data were processed

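The deposited table holds raw counts: whole-number reads per NCBI gene, 1 column per library named by a brain id, with no normalisation in the values. Per the submitters' processing notes the tools were Trimmomatic 0.36, FastQC 0.11.9 and STAR 2.6.1. No source used here names the counting tool, the genome build or whether strand was used, so reads of overlapping genes on opposite strands may not be separated. The 169 entries without a gene ID (0.0344% to 0.0739% of a library) were left out. Symbols came from the RefSeq table of bTaeGut7.mat, which held 16205 of 21786 IDs. Replicates are the labels' separate brain ids, of which those of female 50-day replicates 5 and 6 share a number.

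Counts were scaled by TMM, filtered with filterByExpr and fitted with 1 mean per group over all 22 libraries with edgeR 4.0.16 in R 4.3.3. The edgeR SE is the absolute log2 fold change divided by the square root of F. P-values were adjusted by Benjamini and Hochberg over 16004 genes. Alternatives were DESeq2 1.42.0, limma voom 3.58.1, RLE or upper-quartile scaling, no or a stricter filter (1 CPM in 5 libraries), fits of the groups compared, a replicate block, depth as a term, shallow libraries alone, leaving out each library, summing female 50-day replicates 5 and 6, and an adjusted p under 0.01. Deep libraries alone were added after the data were seen. The steps were tested on simulated counts. The limit set there on the share of false calls was looser for DESeq2, an alternative only, than for edgeR and limma voom. DESeq2 held that share less well at these group sizes, so calls made by DESeq2 alone carry less weight.

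The genes and lists were chosen with earlier results of these data known. All 10 family members are named, with the 4 called pathway genes of smallest p per comparison and the 2 genes most alike per member. EPHB6, EFNA1, EFNA3 and RELN, and EPHB3 at 50 days, were named after their values were seen. EFNA2, EFNA4 and EPHA8 were also named outside that rule. No sequences were used, and 1 marker gene is not reported here.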

Additional observations from a re-analysis of the deposited data

Results flagged for a closer look

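The age change differed between the sexes in 4 of the 10 genes by the interaction test of edgeR, where 12.3% of all genes were called. That test includes the 20-day groups, in which sex and depth cannot be told apart. With a depth term EPHA6 alone kept its call (edgeR adjusted p = 0.041). The male change minus the female change on the log2 scale was -1.35 for EPHA6, -1.05 for EPHB2, -0.87 for EPHA5 and -0.70 for EPHA7. EPHA6 moved in opposite directions, lower in all 5 male libraries at 50 days than in any 20-day male and higher in all 7 female libraries at 50 days than in any 20-day female.

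In 2 of 40 groups of libraries 1 value lay far from the others, and chance alone gives about 1 in 20. EPHA5 stood at 294 CPM in male 50-day replicate 2, with 186 CPM as the next male value. Without that library the log2 fold change of EPHA5, male against female at 50 days, was -1.10 (adjusted p = 6.22e-06). EPHA6 stood at 204 CPM in female 50-day replicate 5, with 154 CPM as the next female value. Without it the log2 fold change of EPHA6 at 50 days was -1.03 (adjusted p = 2.17e-07). Replicate 5 is the library whose brain id shares a number with replicate 6, where EPHA6 stood at 147 CPM.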

How the results depend on the processing

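Of the 50 tests of the 10 genes 18 were called. Over all genes tested, 33.1% were called between the sexes at 50 days and 2.11% at 20 days. By age 26.7% were called in males and 14.9% in females, and 12.3% for the interaction. None of the 18 changed sign or lost its call when any 1 library was left out. Over all the alternatives, however, only 6 of the 18 never lost the call at an adjusted p of 0.05. The depth term lost 4 of the 18, and shallow libraries alone lost 7 of the 12 that could be refitted. With libraries left out, the count called ran from 6 to 8 between the sexes at 50 days and from 6 to 7 by age in males. It ran from 2 to 3 by age in females and from 4 to 5 for the interaction. Over all genes these fits called 4477 to 5350, 3639 to 4366, 1746 to 2421 and 1506 to 2131, in that order. The replicate numbers carry separate brain ids and showed no clear pairing. Same-numbered libraries of different groups had correlations of their deviations from -0.11 to 0.28, with 3 of 30 pairs over 0.1. Libraries of other numbers had -0.216 to 0.367, with 11 of 150 pairs over 0.1. Of the 22 libraries 5 correlated best with their own number. What lay behind the higher values was not tested. With the replicate block 6 genes were called between the sexes at 50 days, 0 at 20 days, 6 by age in males, 2 by age in females and 4 for the interaction, and no call changed. Summing female 50-day replicates 5 and 6 into 1 library changed no call of the 10 genes either. Of the 32 uncalled results 9 changed sign in an alternative, and no direction was drawn from them.

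With a depth term 7 of the 10 genes were called between the sexes at 50 days and 6 by age in males, 1 by age in females (pathway genes 4 in place of 11) and 1 for the interaction (pathway genes 1 in place of 10). Of the 16004 genes tested, the same fit called 4018, 2712, 744 and 72 in these comparisons, in that order. Fits of shallow or deep libraries alone change depth and the number of libraries together. Among shallow libraries 3 genes were called at 50 days between the sexes (pathway genes 7 in place of 23) and 2 by age in males (pathway genes 10 in place of 23). Among deep libraries 4 pathway genes were called between the sexes, and edgeR called 0 of the 10 genes and 0 pathway genes by age in females, where 2 and 8 had an unadjusted p under 0.05. DESeq2 called 18 pathway genes for the interaction, and 2520 of all genes tested against 1971 by edgeR. At an adjusted p under 0.01 the pathway counts were 6 by age in females and 3 for the interaction. With each library left out the pathway counts ran from 7 to 13 by age in females and from 6 to 13 for the interaction.

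Counts over all genes moved as well. Between the sexes at 50 days 5304 genes were called, 1956 among shallow libraries, 999 among deep ones and 3500 at an adjusted p under 0.01. At 20 days 337 were called, and 187 with the depth term. By age in males 4276 were called, 2712 with the depth term, 1546 among shallow libraries and 2665 at 0.01. By age in females 2378 were called, 744 with the depth term, 21 among deep libraries and 1109 at 0.01. The interaction had 1971 calls, 72 with the depth term and 755 at 0.01. The cause was not tested.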

Other observations

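Within groups the 10 genes varied together only loosely. Over deviations from the group means, Pearson's r of the 45 pairs of genes ran from -0.286 for EPHA3 with EPHA7 to 0.519 for EFNB2 with EPHB2, with a median of 0.14, as a description over 22 libraries. EPHA7 and EPHB2 had 0.493, EFNB2 and EPHA6 0.473 and EPHA5 and EPHA7 0.465. Over all libraries without that adjustment EPHA5 and EPHB2 had r = 0.893.

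Several family members outside the 10 were near the lower end of what these libraries read. EFNA2 averaged 0.322 CPM in 50-day males, 0.456 CPM in 50-day females, 0.399 CPM in 20-day males and 0.520 CPM in 20-day females. EFNA4 averaged 0.287 CPM in 50-day males, against 1.39 CPM in 20-day males, and was called lower at 50 days in males. EPHA8, which averaged 1.55 CPM in 50-day males and 3.84 CPM in 50-day females, was not called between them (adjusted p = 0.0798).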
